A study of Mus musculus with 18 samples.

Results

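Chromatin was described at 10 genes that handle calcium in the heart muscle cell: Ryr2, Atp2a2, Pln, Sln, Casq2, Trdn, Hrc, Slc8a1, Jph2 and Stim1. They were chosen by name, from 21627 protein-coding genes of the autosomes and chromosome X. Every region in the authors' deposited lists that overlapped one of these genes or the 10 kb on either side was taken, 751 of 2377384 regions. The study asked by chromatin immunoprecipitation and sequencing (ChIP-seq) how loss of G9a alters chromatin in the heart. G9a is the enzyme, encoded by Ehmt2, that methylates lysine 9 of histone H3. H3K9me2 is the mark it makes, H3K27me3 is the silencing mark of Polycomb repressive complex 2, and Mef2c is a transcription factor of muscle genes. The KO mice were G9a flox/flox; alphaMHC-MerCreMer +/-, and the control mice, here Cre, were alphaMHC-MerCreMer +/-. All carried the transgene and were of the C57BL/6J strain. MerCreMer is a Cre recombinase that needs tamoxifen to act, and the alphaMHC promoter restricts it to cardiomyocytes, so other cells in the cardiomyocyte-enriched material keep an intact G9a gene. Neither the age of the mice nor the tamoxifen schedule is stated in the labels. There were 2 Cre and 2 KO libraries per target. A single input library of each genotype is not used here.

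Calcium that enters a cardiomyocyte with each beat opens the ryanodine receptor, and the sarcoplasmic reticulum then releases its stored calcium to start contraction. Relaxation follows as the SERCA pump returns calcium to the store and the sodium-calcium exchanger carries the rest out of the cell. Small membrane peptides restrain the pump, proteins of the lumen buffer the store and tether it to the release channel, and a junctional protein holds the store against the surface membrane. Ryr2 encodes the release channel, Atp2a2 the pump, and Pln and Sln the peptides phospholamban and sarcolipin. Casq2 encodes calsequestrin, Trdn triadin and Hrc the histidine-rich calcium-binding protein. Slc8a1 encodes the exchanger, Jph2 junctophilin and Stim1 the sensor that reports store depletion to channels of the surface membrane.

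The sequence before the start of 2 of these genes is shown because listed regions lie on or beside it. Each is the 250 bases upstream of the RefSeq start (GRCm38.p6, the build of the deposited lists), read 5′ to 3′ on the plus strand. Capitals mark every CG dinucleotide in the Stim1 sequence (chr7:102267569-102267818), and a match to the binding motif of the MEF2 family in the Casq2 sequence (chr3:102086165-102086414).
Stim1: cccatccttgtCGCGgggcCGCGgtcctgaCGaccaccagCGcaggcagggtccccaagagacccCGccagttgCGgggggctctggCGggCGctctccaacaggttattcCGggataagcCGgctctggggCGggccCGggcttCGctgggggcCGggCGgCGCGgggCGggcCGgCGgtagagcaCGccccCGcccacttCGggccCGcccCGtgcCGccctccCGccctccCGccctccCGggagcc
Casq2: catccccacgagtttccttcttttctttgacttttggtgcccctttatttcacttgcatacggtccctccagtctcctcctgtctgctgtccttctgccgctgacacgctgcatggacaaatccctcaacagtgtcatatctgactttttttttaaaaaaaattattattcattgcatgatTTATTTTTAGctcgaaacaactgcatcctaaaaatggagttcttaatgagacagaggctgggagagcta
The Stim1 sequence holds 31 CG dinucleotides and 78.4% G or C, and 5.22% of 32619 promoter sequences hold as many CG dinucleotides (median 6). Listed regions of G9a, H3K9me2 and H3K27me3 overlap it, and all 3 were higher in KO. In the Casq2 sequence the MEF2 motif, searched on both strands, matches once and begins 69 bases before the start, and 2.84% of the promoter sequences hold a match. It was the only match in the 8 promoter sequences of the 7 genes that had an entry (Jph2 has 2), over the same 250 bases. No listed Mef2c region overlaps the Casq2 sequence, and the one closest to the start of the gene, which begins 536 bases past it, was lower in KO. A match of letters is a description and does not show binding.

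In the authors' deposited lists each region has 2 Cre values, 2 KO values and a -log10 p of the authors' own comparison, which is at least 2 for every region. Nothing in the labels or lists states the scale of the values or the sequencing depth behind them, so intervals that rest on depth are left out. A log2 ratio below divides the mean KO value plus 1 by the mean Cre value plus 1. The regions were listed because they differ, so a p-value over them is too small, and each count at the 10 genes is set beside the share among all listed regions or all genes. With 2 values against 2 the smallest exact two-sided p is 0.333. Summed over the listed regions, the values of a library lay between 44305272 and 114744154. Median values per library were 104 and 97 for Cre and 86 and 75 for KO for G9a, so KO values were lower in most of that list. G9a values summed over Ehmt2 and 10 kb either side were 2423 and 2212 for Cre and 1687 and 1239 for KO. These sums are lower in both KO libraries but do not test the deletion, whose position the labels leave unstated. H3K9me2 ran the other way, with medians of 86 and 75 for Cre and 95 and 102 for KO. When the libraries of a target were scaled to a common median, the median log2 difference over all genes shifted by 0.32 (G9a), -0.29 (H3K9me2), 0.28 (H3K27me3) and 0.33 (Mef2c). Both values are therefore given where a gene passed a test. Among markers of cell types, 0 to 1 of 10 cardiomyocyte genes and 0 to 3 of 8 endothelial, fibroblast, leukocyte or smooth muscle genes were called in one direction for any target. The most was 3 of 8 endothelial genes with lower H3K27me3, which was called at 17.5% of all genes. The lists hold no RNA, so the part of cell makeup in the results was not tested.

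How much of each gene the lists covered differed most for H3K27me3. At Stim1 73 H3K27me3 regions spanned 147.2 kb, 75.2% of the gene and its flanks, and 2.63% of all genes have a larger share. Sln followed with 7 regions over 16.65 kb, a share of 70.6%, which 4.18% of genes exceed. The median gene has 11.5%, and 13.4% of genes have no H3K27me3 region. Hrc had 18.4% and Jph2 3.92%, while Ryr2, Atp2a2, Casq2 and Slc8a1 lay between 0.296% and 1.06%, and Pln and Trdn had no region. So the genes of 1 sensor of the store and 1 pump inhibitor held most of the listed H3K27me3 kb of the 10 genes. Those of the channel, pump, exchanger and triadin held little or none of it. The lists hold regions that differ between KO and Cre, so these shares do not measure how much of the mark a gene carries. Stim1 and Sln also had the highest values per listed kb. These were 417 and 468 at Sln and 339 and 362 at Stim1 in the Cre libraries, against 51.8 to 213 at the other 6 genes with a region. For the other 3 targets the shares were mostly under the median of all genes (15.3% for G9a, 15.2% for H3K9me2, 13.8% for Mef2c). The exceptions were Sln for G9a (43.9%) and Mef2c (20.6%), and Stim1 for G9a (15.6%) and H3K9me2 (18.9%). Pln had a single G9a region, a single H3K9me2 region and no Mef2c region, all of them outside the gene and inside the span of its neighbour Cep85l.

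**Figure D1:**
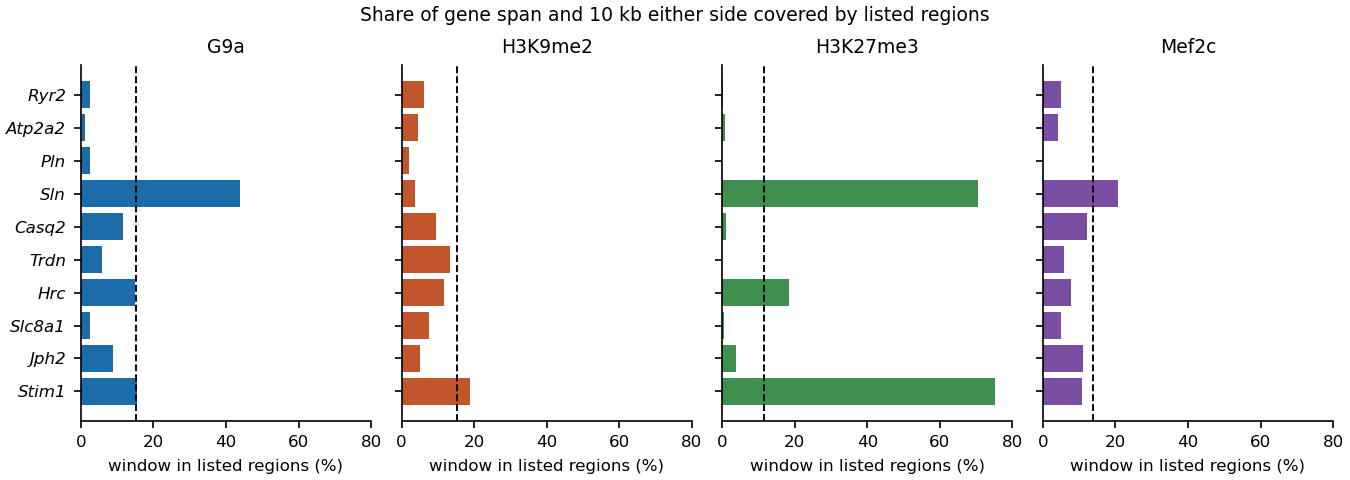
Bars give the percent of each gene's span and 10 kb either side that lies in listed regions of a target, and the dashed line is the median of all protein-coding genes. Listed H3K27me3 regions cover 75.2% at Stim1 and 70.6% at Sln and at most 18.4% at the other 8 genes.

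Of the 175 G9a regions at the 10 genes, 89 (50.9%) were lower and 86 (49.1%) higher in KO, against 61.5% lower among all listed G9a regions. Both KO values lay below both Cre values at 63 (36.0%; 39.2% of all) and above them at 42 (24.0%; 22.4% of all). H3K9me2 had 126 lower (45.3%) and 152 higher regions, against 39.7% lower among all, with 76 (27.3%; 24.9% of all) entirely below and 96 (34.5%; 40.9% of all) entirely above. For H3K27me3, 61 of 101 regions were lower (60.4%; 63.3% of all), 48 entirely below (47.5%; 44.5% of all) and 28 entirely above (27.7%; 22.6% of all). Without the 73 Stim1 regions, 13 of 28 were lower (46.4%), further from the 63.3% of the whole list. Mef2c regions were lower at 106 of 197 (53.8%; 61.7% of all), entirely below at 68 (34.5%; 42.7% of all) and entirely above at 62 (31.5%; 23.3% of all). Over all 10 genes these shares stood within 11 percentage points of the whole lists.

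By limma over all listed regions of a target, none of the 751 regions had an adjusted p under 0.05. The share called among all regions was 0.00119% (6 regions) for H3K27me3 and 0% for each of the other targets. At an unadjusted p under 0.05 the counts at the 10 genes were 10 for G9a (5.71%; 6.50% of all), 20 for H3K9me2 (7.19%; 11.1% of all) and 20 for Mef2c (10.2%; 11.3% of all). For H3K27me3 it was 22 (21.8%; 15.3% of all), of which 20 were at Stim1, 18 of them lower in KO. Without the first KO value 6 of the 175 G9a regions had an adjusted p under 0.05, and over the whole G9a list there were then 64315 such regions.

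Listed values were then summed per gene and library and tested by limma over all genes with a region. For G9a 0 of the 10 genes passed an adjusted p of 0.05 (0% of all genes lower, 0% higher), and 1 had an unadjusted p under 0.05 (14.1% of all). H3K9me2 was higher at 1 gene, Pln (7.29% of all genes were called higher and 0.434% lower), and 3 genes had an unadjusted p under 0.05 (24.3% of all). H3K27me3 was lower at Stim1 and Sln, 2 of the 8 genes with a region (17.5% of all genes were called lower and 1.67% higher), which were also the 2 at an unadjusted p under 0.05 (36.6% of all). Mef2c was lower at Stim1, 1 of 9 genes (10.5% of all genes were called lower and 0.598% higher), and 2 genes had an unadjusted p under 0.05 (29.0% of all). Over all genes scaling also changed the split of the calls, to 701 lower of 918 for H3K9me2 (90 of 1602 as deposited), 75 of 455 for H3K27me3 (3287 of 3600) and 114 of 573 for Mef2c (2156 of 2279). None of these 4 calls held when the libraries were scaled to the same median. Scaling brought 2 others: lower H3K9me2 at Trdn and higher Mef2c at Ryr2.

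**Figure D2:**
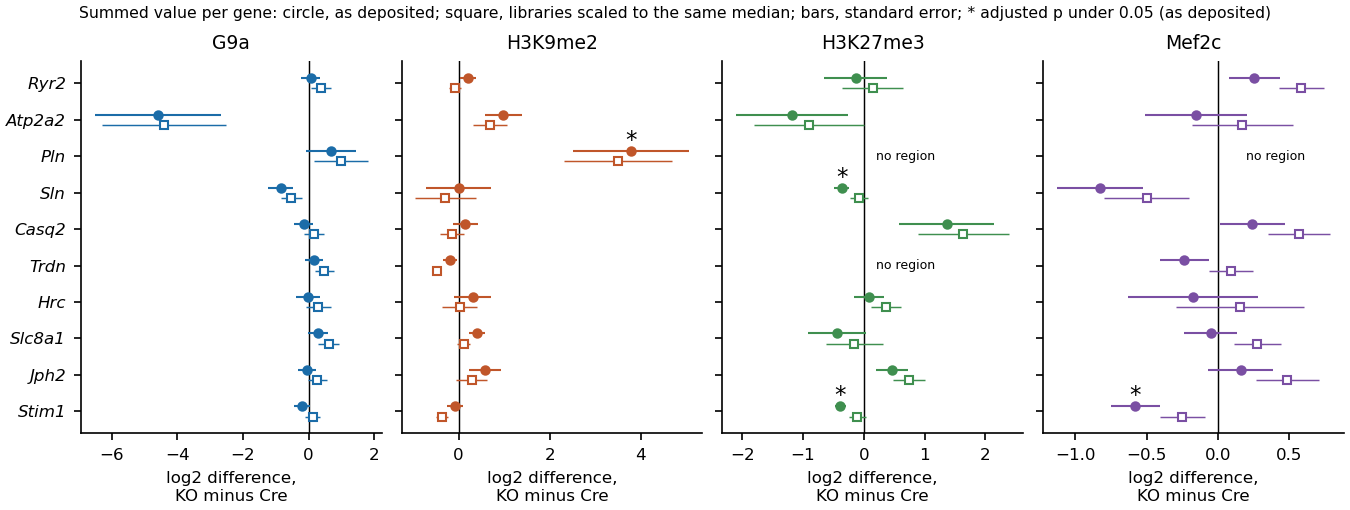
Points give the log2 difference of the summed value, KO minus Cre, for each gene and target with its standard error. Circles are the values as deposited and squares those with the libraries scaled to the same median, and the asterisks over Pln for H3K9me2, Stim1 and Sln for H3K27me3 and Stim1 for Mef2c mark an adjusted p under 0.05 as deposited.

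**Figure D3:**
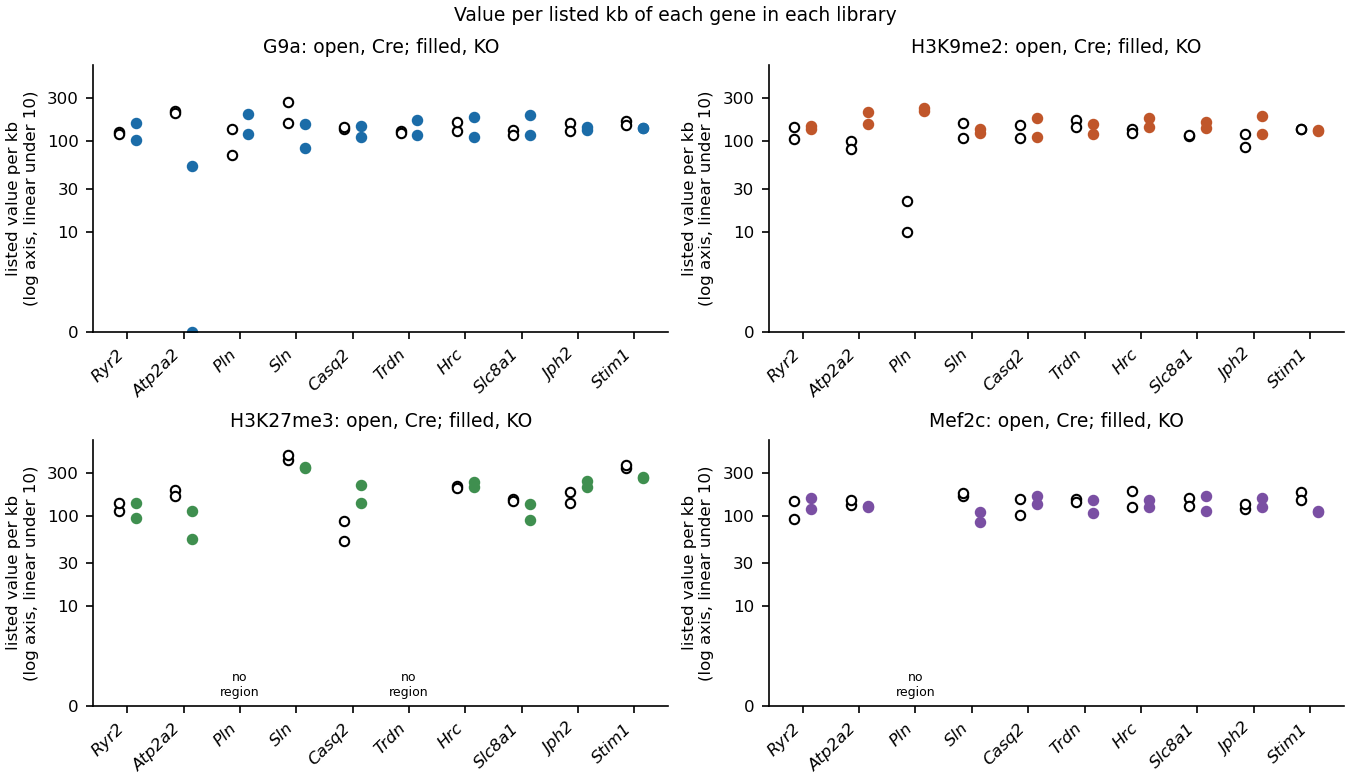
Each point is the summed value of a gene per listed kb in a library, open for Cre and filled for KO, on an axis that is logarithmic above 10 and linear below. H3K27me3 at Sln and Stim1 lies above all other genes, and the KO points lie below the Cre points at both.

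Ryr2 encodes the channel through which the store releases its calcium (gene ID 20191, chromosome 13, 11553099 to 12106945, minus strand). It had 31 G9a, 61 H3K9me2, 4 H3K27me3 and 50 Mef2c regions, and regions of both directions were interleaved along its 553.847 kb. In the authors' deposited list its H3K9me2 region with the highest -log10 p (11670001 to 11670550) had values of 127 and 145 for Cre and 8 and 0 for KO, a log2 ratio of -4.78. That is the lowest H3K9me2 ratio of the 10 genes. The leading Mef2c region in the deposited list (11639451 to 11640850) went the other way, with 103 and 29 for Cre against 231 and 335 for KO. In the part of the gene nearest its start, of 3 equal parts, 10 of 17 deposited Mef2c regions were lower (61.7% of all). In the part nearest its end 14 of 21 were higher (38.3% of all). At the end 6 in a row were higher. Among G9a regions, the leading one of the authors' deposited list (11619801 to 11620300) had 112 and 108 against 19 and 10. Near the start of Ryr2 a deposited G9a region (12107601 to 12108200) had 131 and 88 for Cre against 33 and 41 for KO. Also within 2 kb of the start, H3K9me2 had 45 and 84 against 8 and 50 in the authors' deposited list (12108851 to 12109250), which overlap, and Mef2c had 25 and 33 against 43 and 72 (12104951 to 12105300), which do not. The leading H3K27me3 region in the deposited list (11686701 to 11687100) had 42 and 104 against 0 and 33. At the level of the whole gene these opposing regions summed to small differences. The G9a sums were 1879 and 1804 for Cre and 1542 and 2410 for KO, H3K9me2 5111 and 3820 against 4962 and 5277, and Mef2c 4244 and 2661 against 3483 and 4628. The groups overlapped for each target. The Mef2c difference was 0.26 (SE 0.18, limma adjusted p 0.342) as deposited and 0.59 (SE 0.16, adjusted p 0.0353) with the libraries scaled. Leaving out 1 value gave differences from -0.08 to 0.59 as deposited. Over 16 per-kb values and 18276 genes with regions of all targets, the genes most like Ryr2 were Wdr72 (Pearson r 0.913) and Zbtb20 (0.906), a description over libraries that share a scale.

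The pump gene Atp2a2 (gene ID 11938, chromosome 5, 122453513 to 122502225) carried few regions: a single G9a and a single H3K27me3 region, 5 of H3K9me2 and 5 of Mef2c. All 5 H3K9me2 regions were higher in KO (60.3% of all), 4 of them with both KO values above both Cre values (40.9% of all). Their sums were 318 and 263 for Cre and 664 and 493 for KO, a difference of 0.98 on the log2 scale (SE 0.40, limma adjusted p 0.106; 0.69 and 0.289 with the libraries scaled). The strongest of these in the deposited list (122490201 to 122490700), inside the gene, had 44 and 16 against 124 and 45. The single G9a region (122445951 to 122446650), in the flank towards Anapc7, had in the authors' deposited list 154 and 144 for Cre and 37 and 0 for KO. The KO values lie below the Cre values but far from each other. The limma difference was -4.60 (SE 1.92, adjusted p 0.346). It was -7.23 without the first KO value, which leaves a KO value of 0 alone. The leading deposited Mef2c region (122443101 to 122444100) had 191 and 194 against 62 and 74 and lies in Anapc7. Its H3K27me3 region in the authors' deposited list (122444101 to 122444650) had 107 and 92 for Cre and 30 and 62 for KO. In the same flank the deposited H3K9me2 region closest to the span (122450651 to 122451600) was higher, with 136 and 70 against 163 and 205. A deposited Mef2c region that overlaps it (122450601 to 122451200) was higher too, with 51 and 63 against 94 and 119. So this flank held both directions, with the G9a and H3K27me3 regions and the leading Mef2c region lower. The regions inside the span, of H3K9me2 and Mef2c alone, were higher. The closest genes by per-kb values were Spag11a (Pearson r 0.959) and Trp53i13 (0.952), again over 16 values. Pln, which has no region of H3K27me3 or Mef2c, could not be compared in this way.

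Pln and Sln encode peptides that bind the pump and slow it, Pln chiefly in the ventricle and Sln chiefly in the atrium. Pln (gene ID 18821, chromosome 10, 53337686 to 53345999, plus strand) had no region inside the gene. Its H3K9me2 region in the authors' deposited list (53331801 to 53332400), 5286 bases before the start, had 6 and 13 for Cre and 131 and 140 for KO. Both KO values were far above both Cre values. The log2 difference was 3.79 (SE 1.27, limma adjusted p 0.0418), and 3.50 (adjusted p 0.0857) with the libraries scaled. Leaving out the first or second KO value gave adjusted p-values of 0.275 and 0.471. The call rests on 1 region of 600 bases that Pln shares with Cep85l. In the deposited list the G9a region on the other side of Pln had 95 and 49 against 142 and 84, which overlap.

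Sln (gene ID 66402, chromosome 9, 53850251 to 53853849) lay in a block of listed H3K27me3 and G9a regions. The widest H3K27me3 region of the authors' deposited list, in the flank (53858301 to 53863600), had 2667 and 3324 for Cre and 1762 and 1702 for KO, with a -log10 p of 72.0. It had the highest -log10 p of all regions at the 10 genes. Over the gene itself both directions occurred. KO values were above Cre values in the deposited region over its lower end (53850151 to 53851350), 500 and 519 against 344 and 453 for Cre, and in the one beside that end (53847251 to 53849700), 1275 and 1214 against 919 and 993 for Cre. The region over its upper end (53852501 to 53853900) had in the deposited list 428 and 267 against 82 and 344, lower on average with groups that overlap, as do those of the next one out (53854901 to 53856550), with 519 and 733 against 655 and 409. Sums over the gene and its flanks were 6947 and 7790 for Cre and 5701 and 5727 for KO. The difference was -0.36 (SE 0.13, limma adjusted p 0.0457), -0.08 (adjusted p 0.779) with the libraries scaled, and 0.10 (adjusted p 0.661) over the gene with 2 kb either side. Leaving out any of the 4 values also ended the call (adjusted p 0.0924 to 0.296). G9a was lower at 8 of 9 regions of Sln (61.5% of all), and 6 in a row were lower. The leading one (53852351 to 53854000), over 1 end of the gene, had in the authors' deposited list 458 and 206 for Cre and 116 and 22 for KO. The other deposited G9a regions within 2 kb of an end had 501 and 262 against 319 and 118 (53847251 to 53848750), 288 and 222 against 235 and 99 (53849401 to 53850550) and 810 and 271 against 401 and 71 (53855251 to 53857400). All 3 were lower on average, with groups that overlap. The summed G9a values of Sln were 2942 and 1713 against 1702 and 904, so that the groups are apart by a narrow margin. The difference was -0.86 (SE 0.38, limma adjusted p 0.354), -0.53 (adjusted p 0.642) with the libraries scaled, and -1.31 without the first KO value. Mef2c was lower at 7 of 8 regions (61.7% of all), with sums of 805 and 866 against 527 and 418. The difference was -0.83 (SE 0.30, limma adjusted p 0.0654), -0.50 (adjusted p 0.346) with the libraries scaled, and -0.997 without the first KO value. The leading Mef2c region of the authors' deposited list (53861501 to 53862100), in the flank, had 126 and 142 against 36 and 5. The deposited one beside the lower end (53848401 to 53849100) had 71 and 150 against 85 and 46, which overlap. The exception in the deposited list, the region over the lower end of the gene (53849901 to 53850600), had 59 and 62 for Cre and 225 and 129 for KO. H3K9me2 had in the authors' deposited list 2 regions near Sln, 1 in each direction, and neither separated the groups. The stronger (53844251 to 53844650) had 107 and 30 against 45 and 25.

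Calsequestrin, the product of Casq2 (gene ID 12373, chromosome 3, 102086415 to 102146514, plus strand), is the main calcium buffer of the store. Within 2 kb of its start the Mef2c and G9a regions were lower in KO. The 4 deposited Mef2c regions from 102084001 to 102091350 were all lower. The deposited one just before them (102083601 to 102084000) was higher, with 54 and 31 against 100 and 84. Those within 2 kb of the start had 129 and 82 against 74 and 69, 42 and 93 against 14 and 42, and 85 and 50 against 19 and 33 in the authors' deposited list. The strongest (102090601 to 102091350) had 177 and 140 for Cre against 1 and 51 for KO. Both sides of the MEF2 match printed above therefore carry lower Mef2c regions, but the groups overlap in 1 of the 3. G9a at the start had 215 and 127 against 101 and 81 in 1 deposited region, and 123 and 55 against 0 and 90 in the other, which overlap. The leading G9a region of the deposited list (102147401 to 102148250), past the end of the gene, had 202 and 123 against 65 and 19. Further into the gene Mef2c regions of both directions occurred. Lower ones in the deposited list had 203 and 133 against 52 and 102 (102105151 to 102105950) and 80 and 75 against 17 and 27 (102132001 to 102132400). A deposited region from 102123301 to 102125450 had 269 and 163 for Cre and 387 and 510 for KO, and H3K9me2 beside it (102122851 to 102123200) had 3 and 0 against 46 and 126. That H3K9me2 ratio, 5.12 on the log2 scale, is the highest among the 751 regions. The 2 H3K27me3 regions were both higher, the stronger with 6 and 28 against 79 and 81 in the authors' deposited list (102105151 to 102105550), with sums of 44 and 74 against 119 and 185 (difference 1.36, SE 0.78, limma adjusted p 0.202). At 1 place in Casq2 (102105351 to 102105550) regions of all 4 lists overlapped, G9a and Mef2c lower and both histone marks higher. Summed over the gene, the values of G9a, H3K9me2 and Mef2c overlapped between the groups.

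Triadin, encoded by Trdn (gene ID 76757, chromosome 10, 33083483 to 33476709), anchors calsequestrin to the release channel. It had 41 G9a, 79 H3K9me2 and 39 Mef2c regions, the most H3K9me2 regions of the 10 genes, and none of H3K27me3. The authors' deposited list gave its H3K9me2 region from 33356651 to 33359250 values of 801 and 450 for Cre and 250 and 121 for KO, with a -log10 p of 53.1, the highest for H3K9me2 at these genes. Beside it the direction changed within a short distance. The 5 deposited H3K9me2 regions in a row from 33325401 to 33329150 were higher, and the strongest of them (33326451 to 33327550) had 92 and 11 against 193 and 376. The next 10 regions in the deposited list, from 33333651 to 33381800, were all lower. Of these 7 had both KO values below both Cre values. Among all H3K9me2 regions, of both directions, 39.7% were lower and 24.9% had both KO values below both Cre values. Mef2c had 7 lower regions in a row over part of the same stretch (33339601 to 33392900), 4 of them with the groups apart. Among all Mef2c regions, of both directions, 61.7% were lower and 42.7% had both KO values below both Cre values. The leading G9a region of Trdn in the authors' deposited list (33401501 to 33402200) had 54 and 11 for Cre and 118 and 203 for KO. Its leading Mef2c region, also higher (33102601 to 33103000), had 14 and 11 against 57 and 119 in the deposited list. At the upper end of the span a deposited H3K9me2 region (33473851 to 33474900) had 185 and 244 against 117 and 144. The stretches above were picked out after their values were seen and were not tested. In the uppermost of 3 equal parts of the span 18 of 26 H3K9me2 regions (39.7% of all) and 13 of 18 Mef2c regions (61.7% of all) were lower. In the other 2 parts 13 of 25 and 8 of 20 H3K9me2 regions were lower. Sums of H3K9me2 were 9715 and 8048 for Cre and 6784 and 8839 for KO, and overlap. The difference was -0.19 (SE 0.16, limma adjusted p 0.481), and -0.49 (SE 0.11, adjusted p 0.0142) with the libraries scaled. G9a sums were 3185 and 3069 against 2863 and 4238, and Mef2c sums 3776 and 3479 against 2592 and 3651. The Mef2c difference was -0.24 as deposited (limma adjusted p 0.358), 0.09 with the libraries scaled and -0.48 without the second KO value. Within the span lies D830005E20Rik, a long noncoding RNA, and counts over it cannot be told apart from Trdn.

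**Figure D4:**
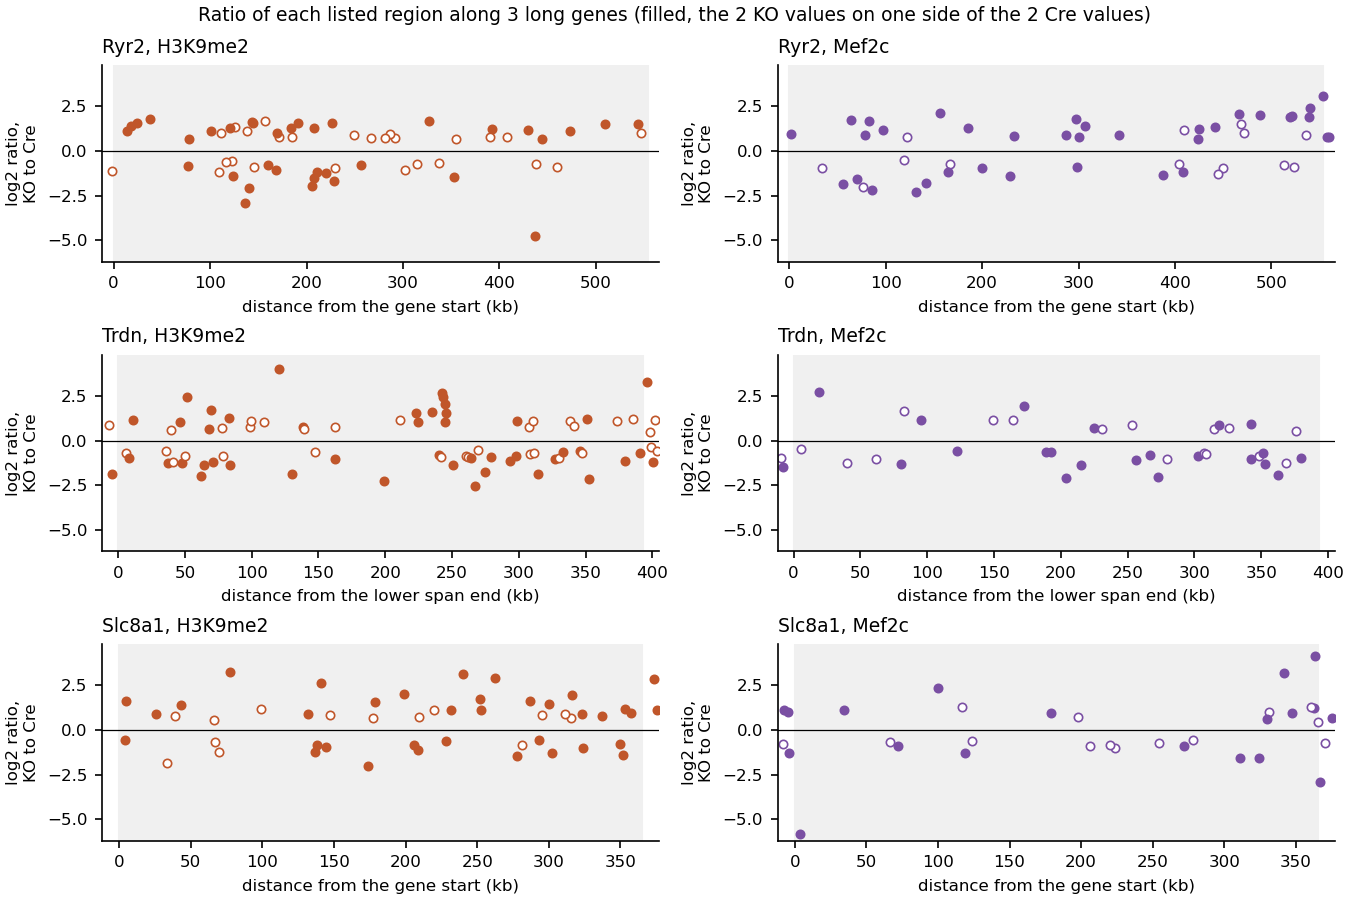
Each point is a listed region of H3K9me2 or Mef2c along Ryr2, Trdn or Slc8a1, placed by distance in kb and by the log2 ratio of KO to Cre, and filled where both KO values lie on one side of both Cre values. Higher and lower regions alternate along all 3 genes. In Trdn H3K9me2, about 250 kb into the span, a short run of higher regions is followed by 10 lower ones. These runs were picked after their values were seen, and regions of both directions lie on either side.

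Hrc encodes a calcium-binding protein of the lumen (gene ID 15464, chromosome 7, 45335269 to 45338973, plus strand). All its regions but 1 lay in the flanks, which it shares with Trpm4 and Ppfia3. The deposited G9a region nearest the start (45333001 to 45333550), within Trpm4, had 29 and 63 for Cre and 120 and 104 for KO. The leading G9a region, further into Trpm4 (45327201 to 45328050), went the other way in the deposited list, with 175 and 188 against 48 and 134. In the flank past the gene, inside Ppfia3, regions of all 4 lists overlapped (45347501 to 45347800), all lower on average. The groups overlap there for G9a (121 and 197 against 212 and 20) and for Mef2c (96 and 244 against 136 and 88). The H3K27me3 region there in the authors' deposited list (45346301 to 45347800) had 413 and 386 against 240 and 278, and the H3K9me2 region (45347401 to 45348300), the leading one of Hrc, had 198 and 163 against 93 and 92. The leading Mef2c region in the deposited list lay nearer the gene (45339451 to 45340000) and was higher, with 34 and 44 against 105 and 120. Sums of H3K27me3 were 926 and 891 for Cre and 1016 and 912 for KO, a difference of 0.08 (SE 0.25, limma adjusted p 0.816; 0.37 and 0.414 with the libraries scaled). The G9a, H3K9me2 and Mef2c differences of Hrc had adjusted p-values of 0.976, 0.676 and 0.831 by limma.

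The exchanger gene Slc8a1 (gene ID 20541, chromosome 17, 81373105 to 81738387, minus strand) had 18 G9a, 50 H3K9me2, 3 H3K27me3 and 33 Mef2c regions. Its H3K9me2 regions were higher at 32 and lower at 18. At a -log10 p of 10 or more, 10 of 11 were higher, against 71.1% of all listed H3K9me2 regions at that level. The leading region of the authors' deposited list (81364251 to 81365250), past the end of the gene, had 19 and 47 for Cre and 220 and 270 for KO. A second deposited region (81497851 to 81498400) had 26 and 5 against 143 and 141. It lies in a run of 5 higher regions that all separate the groups. Among all H3K9me2 regions, of both directions, 60.3% were higher and 40.9% had both KO values above both Cre values. Summed H3K9me2 was 3424 and 3461 for Cre and 4198 and 4935 for KO. The groups did not overlap, and the difference was 0.40 (SE 0.18, limma adjusted p 0.154; 0.11 and 0.680 with the libraries scaled). Counting the regions with a -log10 p of 5 or more alone, it was 0.73 (limma adjusted p 0.0227). That filter rests on the same comparison of KO with Cre. Under it 3682 of 19996 genes were called for H3K9me2, against 1602 of 20742 without it. Mef2c held the extremes of the 751 regions in the lower direction. A region of 350 bases near the start (81734401 to 81734750) had in the authors' deposited list 118 and 47 for Cre and 1 and 0 for KO, a log2 ratio of -5.80. Near the end of the gene 8 Mef2c regions in a row were higher, and the strongest deposited one (81375051 to 81375550) had 11 and 0 against 138 and 90. Summed Mef2c overlapped between the groups, with 3148 and 2520 against 2227 and 3316. The leading G9a region in the deposited list (81744801 to 81745600), before the start, had 114 and 77 for Cre and 309 and 197 for KO. The leading H3K27me3 region (81365601 to 81366350), past the end, had in the authors' deposited list 141 and 139 against 49 and 11.

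Jph2 encodes junctophilin, which holds the store against the transverse tubules (gene ID 59091, chromosome 2, 163336242 to 163398049, minus strand). Its G9a regions split along the gene. The 7 regions in a row from 163362201 to 163393350, in the part nearer the start, were higher. Of these 4 had both KO values above both Cre values. Among all G9a regions, of both directions, 38.5% were higher and 22.4% had both KO values above both Cre values. The 3 in the part nearest the end, of 3 equal parts, were lower. In the authors' deposited list the strongest lower one (163352551 to 163353500) had 233 and 190 for Cre and 9 and 34 for KO, with a -log10 p of 37.9. The strongest higher one in the deposited list (163362201 to 163362700) had 24 and 13 against 95 and 111, and also lies in Gm35750, a long noncoding RNA within the span. H3K27me3 was higher at 5 of 6 regions (36.7% of all), and the same 5 of 6 had both KO values above both Cre values (22.6% of all). The deposited region from 163338101 to 163338550 had 13 and 0 for Cre and 104 and 103 for KO. H3K27me3 sums were 859 and 653 against 1115 and 962, a difference of 0.47 (SE 0.26, limma adjusted p 0.194; 0.75 and 0.119 with the libraries scaled). The leading H3K9me2 region (163405101 to 163405750), before the start towards Oser1, had in the authors' deposited list 21 and 29 for Cre and 106 and 182 for KO. Mef2c had 188 and 298 against 103 and 97 at its leading deposited region (163370601 to 163371950), while 8 of its 13 regions were higher.

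Stim1 (gene ID 20866, chromosome 7, 102261514 to 102437319, plus strand) had the most listed H3K27me3 regions and kb of the 10 genes. Of its 73 regions 48 were lower in KO and 25 higher, and the lower ones were the wide ones: they made up 119.55 of 147.2 kb (81.2%). Of 28 regions of at least 2 kb, 27 were lower, 21 of them with both KO values below both Cre values. The whole H3K27me3 list also runs lower at that width, with 84.4% lower and 72.9% entirely below. The leading region of the authors' deposited list (102435451 to 102440850), across the end of the gene, had 1729 and 1669 for Cre and 892 and 959 for KO. In the deposited list the region from 102329001 to 102333700 had 1603 and 1671 against 856 and 1019, and the widest, of 7.1 kb (102417401 to 102424500), had 2792 and 3318 against 2092 and 2069. A run of 15 lower regions covered 51.4 kb (102289901 to 102341300). Sums over the gene were 49828 and 53265 for Cre and 38857 and 40102 for KO, so both KO libraries were lower. The difference was -0.38 (SE 0.09, limma adjusted p 0.0083), beside a median of -0.27 over all genes, and -0.10 (SE 0.13, adjusted p 0.696) with the libraries scaled. Without the first Cre value the adjusted p was 0.0559 and without the second 0.131.

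At the RefSeq start of Stim1 (102267819, inside the annotated span), over the CG-rich sequence printed above, the direction was the opposite. The H3K27me3 region of the authors' deposited list there (102266901 to 102268400) had 257 and 314 for Cre and 420 and 543 for KO. G9a (102267251 to 102268200) had 126 and 117 against 270 and 226 in the deposited list. H3K9me2 (102267801 to 102268800), which reaches only the last bases of that sequence, had 95 and 95 against 137 and 225. All 3 separate the groups. The next region of each of these targets past the start was lower, with 531 and 416 against 303 and 394 for H3K27me3 in the deposited list (102268401 to 102269800), 62 and 105 against 35 and 34 for G9a (102268351 to 102268800), and 79 and 55 against 40 and 24 for H3K9me2 (102269101 to 102269500). Within 2 kb of the start the direction thus changed for each, and a further deposited H3K27me3 region (102269801 to 102270850) was higher, with 247 and 145 against 243 and 489, which overlap. Before the start a deposited H3K27me3 region (102265751 to 102266550) was higher as well, with 233 and 368 against 416 and 409. These regions are part of the gene sums, and the difference between the start and the body was not tested.

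Mef2c at Stim1 was lower at 22 of 32 regions (68.8%; 61.7% of all). A run of 13 over 85.3 kb (102314251 to 102399550) was lower, 11 of them with both KO values below both Cre values. Among all Mef2c regions, of both directions, 61.7% were lower and 42.7% had both KO values below both Cre values. The leading one in the authors' deposited list (102360001 to 102361350) had 237 and 327 for Cre and 114 and 92 for KO. Mef2c sums were 3858 and 3164 against 2297 and 2380, a difference of -0.58 (SE 0.17, limma adjusted p 0.0268; -0.25 and 0.375 with the libraries scaled). The adjusted p was 0.403 without the first Cre value and 0.137 without the second. G9a was lower at 26 of 42 regions (61.9%), close to the 61.5% of the whole list. In the deposited list its leading region (102301251 to 102301850) had 83 and 190 against 23 and 3. G9a sums were 5183 and 4679 for Cre and 4268 and 4302 for KO (difference -0.20, SE 0.23, limma adjusted p 0.661; 0.12 with the libraries scaled). H3K9me2 sums were nearly level, 5091 and 5144 against 4796 and 4950, with 29 regions lower and 23 higher. The H3K9me2 difference was -0.07 (SE 0.18, limma adjusted p 0.841) as deposited and -0.36 (SE 0.13, adjusted p 0.0938) with the libraries scaled. The leading H3K9me2 region (102309001 to 102309900) had in the authors' deposited list 198 and 204 against 79 and 32.

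**Figure D5:**
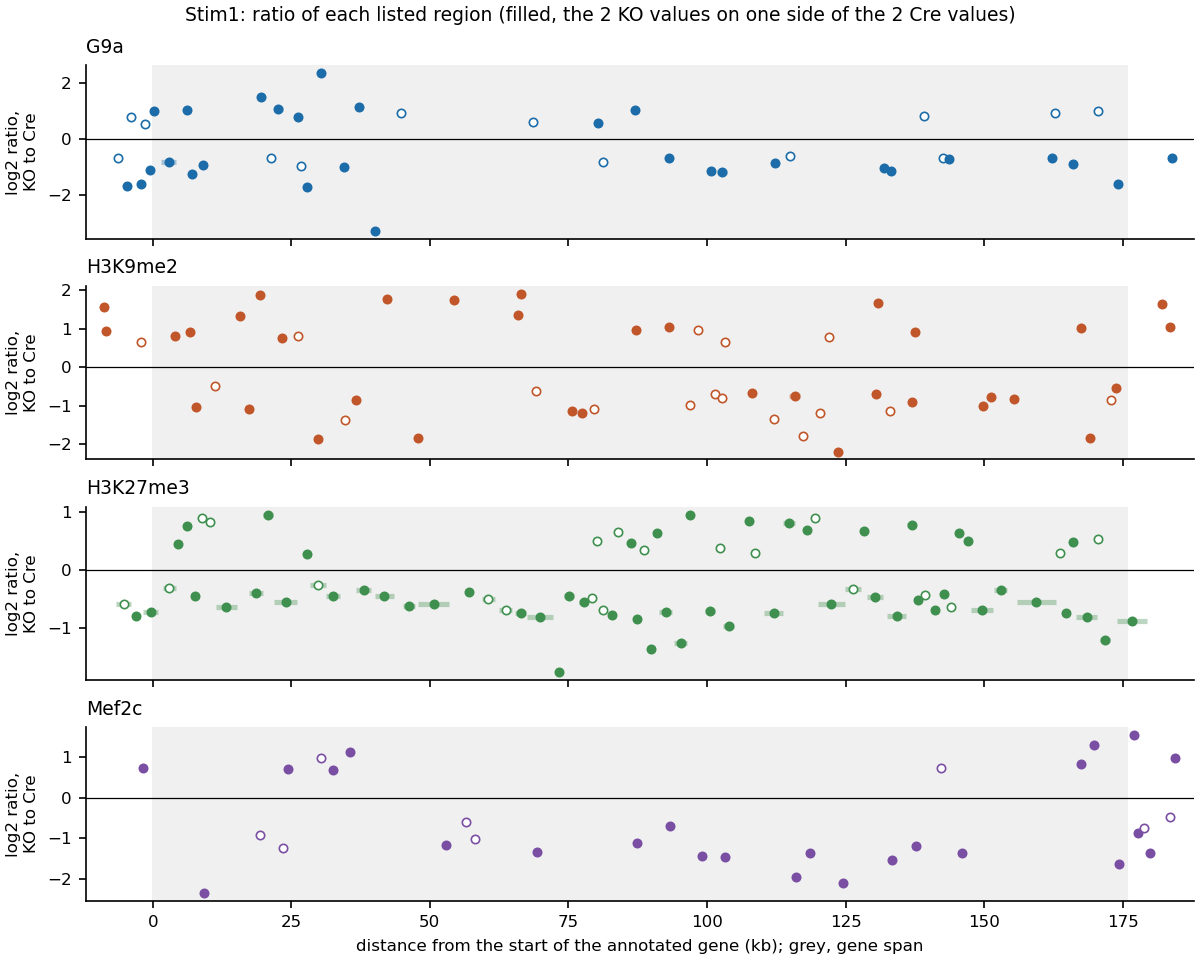
Each point is a listed region of Stim1, placed by distance from the start of the annotated gene in kb and by the log2 ratio of KO to Cre, with a bar for its width and filled where both KO values lie on one side of both Cre values. The wide H3K27me3 regions lie below 0 in all but 1 case, and Mef2c lies below 0 through the middle of the gene.

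Regions of all 4 lists overlapped at 12 places: 10 in Stim1, 1 in Casq2 and 1 in Hrc. By the group means all 4 targets went the same way at 3 of them, 2 in Stim1 and that of Hrc, each time lower. At the Hrc place the G9a and Mef2c values overlap between the groups. Of the 175 G9a regions at the 10 genes 54 (30.9%) overlapped an H3K9me2 region, and of the 278 H3K9me2 regions 50 (18.0%) overlapped a G9a region, against 49.3% and 43.1% in the whole lists. Of those 54 G9a regions, 29 overlapped H3K9me2 regions of the same direction alone (53.7%; 50.2% in the whole list) and 22 of the opposite alone. The same was counted for G9a and Mef2c. A Mef2c region was overlapped by 48 G9a regions (27.4% of 175), against 39.4% in the whole list. Of these 48, 33 did so in the same direction alone, 68.8% against 58.2% in the whole list. The 49 Mef2c regions concerned (24.9% of 197, against 45.3% in the whole list) had 35 in the same direction alone, 71.4% against 57.8% in the whole list. Whether KO differences differ between targets was tested per gene for the 8 genes with regions of all 4 targets. By limma 0 of 48 tests passed an adjusted p of 0.05 and 8 had an unadjusted p under 0.05, against 2.21% and 19.9% of 109656 tests over all genes. The largest was Atp2a2, where H3K9me2 and G9a differed by 5.59 (SE 1.56, adjusted p 0.0642; 0.038 with a pseudocount of 5), a value that rests on the single G9a region.

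Other genes of calcium handling were taken from a list of 47, of which 46 matched the annotation. By limma H3K27me3 was lower at 7 of the 39 with a region (17.5% of all genes) and higher at 1 (1.67% of all), and Mef2c was lower at 4 of 46 (10.5% of all). No gene was called for G9a or H3K9me2, and 3 (14.1% of all) and 7 (24.3% of all) of 46 had an unadjusted p under 0.05. The median log2 difference of this list was -0.27 for H3K27me3 and -0.25 for Mef2c, and that of all genes was -0.27 for both. Ryr3 and Stim2, relatives of 2 of the 10 genes, were among those with lower H3K27me3. Ryr3, a second ryanodine receptor, had sums of 36694 and 34237 for Cre and 25710 and 27014 for KO (difference -0.43, SE 0.09, limma adjusted p 0.0063; -0.15 and 0.551 with the libraries scaled). Stim2, the second store sensor, had 1749 and 1678 against 962 and 1289 (limma adjusted p 0.0483). The others were Asph, which encodes junctin among its products, the plasma membrane pump Atp2b4, the calmodulin gene Calm3 and the inositol trisphosphate receptors Itpr2 and Itpr3. Orai1, the channel that the Stim1 protein opens, was the 1 gene with higher H3K27me3, with 159 and 70 for Cre against 341 and 341 for KO (difference 1.68, SE 0.56, limma adjusted p 0.0399; 1.96 and 0.0552 with the libraries scaled). Mef2c was lower at Atp2a3, another SERCA pump, at the kinase genes Camk2g and Prkaca, and at Sri, which encodes sorcin, a regulator of the release channel. Sri had Mef2c sums of 1425 and 1358 against 602 and 994 (difference -0.85, SE 0.25, limma adjusted p 0.0285; -0.52 and 0.218 with the libraries scaled). In the authors' deposited list its leading Mef2c region (chromosome 5, 8046401 to 8048350) had 420 and 529 for Cre and 38 and 184 for KO. With the libraries scaled none of these 12 calls held.

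Of the same list, the 2 genes with the highest -log10 p in each direction were taken for each target. For G9a these were Asph and Atp2a3 among lower regions and Ryr3 and Cacnb2, a subunit of the calcium channel of the surface membrane, among higher ones. The deposited Asph region (chromosome 4, 9471901 to 9473100) had G9a values of 194 and 318 against 21 and 51. The G9a region of Ryr3 (chromosome 2, 113102351 to 113103350) had 17 and 76 against 210 and 333 in the authors' deposited list. H3K9me2 named Atp2b4 as lower, and the channel subunit gene Cacna2d1 and the pump gene Atp2b1 as higher. At Cacna2d1 (chromosome 5, 15993601 to 15994400) the deposited H3K9me2 values were 6 and 10 against 211 and 152. For H3K27me3 the lower ones were Jph3 and Ryr1 and the higher ones Jph4 and Slc8b1, so both directions included a junctophilin. Jph3 (chromosome 8, 121761251 to 121768700) had deposited H3K27me3 values of 3154 and 2959 against 2123 and 1604, and Jph4 (chromosome 14, 55112951 to 55116750) had 1976 and 1461 against 2614 and 2662. Mef2c named Sri and the mitochondrial exchanger gene Slc8b1 as lower and Camk2d and Itpr2 as higher. Camk2d, which encodes the main calmodulin-dependent kinase of the heart, had deposited Mef2c values of 18 and 13 against 160 and 175 (chromosome 3, 126690051 to 126690800). By limma none of the 16 regions so selected had an adjusted p under 0.05, and 15 had an unadjusted p under it.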

How the data were processed

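Each of the 4 targets has a region list deposited by the authors, with a position, a direction and, in a text cell, 4 values and a -log10 p of the authors' own comparison per region. Per the labels the libraries compare KO with Cre. The order of the values, Cre first, was taken from the list names. The submitters' processing notes name BWA 0.7.10-r789, SAMtools 1.1 and the build mm10 (GRCm38). Neither these nor the labels state the region caller, the scale or the use of input, and no count model was used.

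Gene spans, names and promoter sequences came from RefSeq (GRCm38.p6). Exons are not used here. A region belongs to a gene if it overlaps the span or 10 kb either side. On log2(value + 1), limma 3.58.1 (R 4.3.3, trended empirical Bayes, Benjamini-Hochberg at 0.05) was run over all regions and over sums per gene, after tests on simulated data. The 2 libraries per group are labelled as biological replicates in the series text.

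The 10 genes, the other calcium genes and the markers were chosen with earlier results of these data known. All 10 genes are named, each with its region of highest -log10 p per target and the regions within 2 kb of its start; stretches of regions in one direction and further regions were chosen after their values were seen. Of the other calcium genes, the 2 with the highest -log10 p per target and direction are named by rule, and those called were added. The alternatives were a pseudocount of 5, scaled libraries, minimum values, a stricter -log10 p, narrower windows and leaving out each value. Of the regions selected by the rule for named genes, 1 is not reported here.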

Additional observations from a re-analysis of the deposited data

How the results depend on the processing

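No paired analysis was possible because the deposited values carry no replicate numbers. With 2 values per group and regions listed because they differ, the p-values order regions and genes and cannot show that a difference is absent, and the depth that would set the precision is unknown. Where a group keeps 1 value, limma assumes that it varies like the other group. The cause of the turns below was not tested. The smaller windows and stricter lists hold fewer regions.

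The summed differences of the 10 genes turned sign in 20 of 148 leave-one-out fits and in 27 of 201 fits under other alternatives. Leaving out a value ended some calls at these genes and brought others. The strongest region of each gene and target turned in 1 of 148 leave-one-out fits (H3K9me2 at Sln, -1.64 to 0.16) and in none of 142 others. Scaling turned G9a at Casq2 (0.17), Hrc (0.30), Jph2 (0.26) and Stim1 (0.12), H3K9me2 at Ryr2 (-0.082), Sln (-0.29) and Casq2 (-0.15), H3K27me3 at Ryr2 (0.15), and Mef2c at Atp2a2 (0.17), Trdn (0.093), Hrc (0.16) and Slc8a1 (0.28). The gene span alone turned G9a at Jph2 (0.22), H3K27me3 at Slc8a1 (0.93), and Mef2c at Atp2a2 (0.99) and Sln (1.48). With 2 kb either side these were 0.22, 0.93, 0.99 and 0.49, and G9a at Hrc (1.36), H3K27me3 at Sln (0.10) and Mef2c at Hrc (1.51) turned too. A -log10 p of at least 5 turned H3K9me2 at Stim1 (0.050) and Mef2c at Hrc (0.23) and Slc8a1 (0.015), and a pseudocount of 5 H3K9me2 at Sln (-0.00014).

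The leave-one-out ranges that crossed 0 were, for G9a, -0.37 to 0.051 at Casq2, -0.39 to 0.34 at Hrc, -0.21 to 0.090 at Jph2, -0.26 to 0.39 at Ryr2, -0.068 to 0.65 at Slc8a1 and -0.13 to 0.44 at Trdn. For H3K9me2 they were -0.19 to 0.48 at Casq2 and -0.28 to 0.28 at Sln, and for H3K27me3 -0.40 to 0.14 at Ryr2. For Mef2c they were -0.045 to 0.53 at Casq2, -0.48 to 0.13 at Hrc, -0.0064 to 0.32 at Jph2, -0.080 to 0.59 at Ryr2, -0.34 to 0.24 at Slc8a1 and -0.48 to 0.011 at Trdn.

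Regions of the 10 genes at an unadjusted p under 0.05 by limma ranged in leave-one-out fits from 2 to 46 for G9a (46 without the first KO value), 12 to 71 for H3K9me2 (71 without the first Cre value), 11 to 21 for H3K27me3 and 10 to 37 for Mef2c. For G9a they were 6 with a mean of at least 50 and 3 with a -log10 p of at least 5. Over all G9a regions the calls at an adjusted p under 0.05 ranged from 0 to 64315 (without the first KO value). All H3K27me3 calls numbered 2 with the libraries scaled, 12 with a mean of at least 50, 2 among regions whose -log10 p reached 5, and 0 to 2 in leave-one-out fits, against 6. Genes called ranged in leave-one-out fits from 0 to 3545 for G9a, 48 to 2585 for H3K9me2, 1141 to 1936 for H3K27me3 and 41 to 3985 for Mef2c. For H3K9me2 (1602 as deposited) they numbered 918 scaled, 158 on the span alone, 246 with 2 kb and 3682 with a -log10 p of at least 5. For H3K27me3 (3600) they were 455, 1634 and 1863 under the first 3 of these, and for Mef2c (2279) 573, 653, 873 and 5012. Differences between targets were called 2423 times, 337 scaled and 806 on the span alone. Requiring an overlap of at least 50% of a region lowered all 12 overlap shares, 8 of them to below the 95% Wilson interval of the share, G9a with H3K9me2 to 21.7% and H3K9me2 with G9a to 11.9%.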
